A study of Cavia porcellus with 72 samples.

Results

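The genes of GABA synthesis, vesicular loading and breakdown (GAD1, GAD2, SLC32A1 and ABAT) and 5 genes that mark classes of hippocampal interneurons (PVALB, SST, VIP, NPY and CCK) were followed through 3 generations of juvenile female guinea pigs. They were chosen by symbol. All 9 symbols were found in the count table of every generation, among 11446 genes that the 3 tables share, and all 9 passed the filter on low counts in each generation. Their raw counts lay between 315 and 5898 reads per library. RNA came from the right hippocampus of unstressed Dunkin-Hartley females at postnatal day 40. The pregnant F0 animals had received either betamethasone, a synthetic glucocorticoid (sGC), or saline vehicle (Veh). F1 animals were the daughters of those pregnancies, and F2 and F3 animals descended from them through the paternal line, by F1 and F2 males mated to females from outside the experiment. Animals of a group came from independent mothers, and Veh animals of each generation descended in the same way from saline pregnancies. There were 6 Veh and 5 sGC animals in F1, 6 and 6 in F2, and 6 and 7 in F3.

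GABA, the main inhibitory transmitter of the adult hippocampus, is made from glutamate by the glutamate decarboxylases GAD67 (gene GAD1) and GAD65 (GAD2), is packed into vesicles by the transporter VGAT (SLC32A1) and is broken down by GABA transaminase (ABAT). Interneurons share the first 3 genes, whereas the calcium-binding protein parvalbumin (PVALB) and the neuropeptides somatostatin (SST), VIP, neuropeptide Y (NPY) and cholecystokinin (CCK) each mark a part of them. ABAT is also used by astrocytes, and NPY and CCK are also made by some excitatory cells, so that these genes are not exclusive to interneurons.

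Each library held between 13507449 and 19767033 counted reads. Levels are given in CPM, the reads of a gene per 1e+06 counted reads, scaled by TMM over all 36 libraries, and because no transcript lengths were used, levels of different genes were not ranked against each other. No pair of libraries of a group agreed within sampling noise (chi-square divided by its degrees of freedom, 2.11 to 28.9 over 91 pairs). The sGC animals F1 replicates 4 and 5, F2 replicate 6 and F3 replicates 5 and 6 carry library numbers 32 to 36, whereas the other libraries of each generation, with every Veh library among them, are numbered in 1 run from 1 to 31. F1 sGC replicate 4 had the highest summed level of 9 astrocyte genes (16426 CPM, against 8680 to 13214 in the other libraries) and the lowest of 10 pan-neuronal genes (6247 CPM, against 6679 to 8452). The next highest astrocyte sum, 13214 CPM, was that of F1 sGC replicate 5. Of 6 genes that mark hippocampal regions 5 were measured (PROX1, C1QL2, C1QL3, WFS1 and FIBCD1), and their sum stayed between 595 and 730.1 CPM in all libraries. A sum over 6 genes of striatal neurons, which are rich in GAD1 and GAD2, lay between 148 and 174 CPM, with ranges that overlapped between Veh and sGC in every generation.

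In F3, the 2 synthesis genes GAD1 and GAD2 were lower in sGC animals, by 0.24 and 0.20 on the log2 scale, and SLC32A1 differed by a like amount at the edge of the threshold. In F1, CCK was lower in sGC animals by 0.23 on the log2 scale, while GAD1, GAD2 and SLC32A1 did not pass. In F2, none of the 9 genes passed the test. PVALB, SST, VIP, NPY and ABAT did not pass in any generation. Changes are given as the log2 of the ratio of sGC to Veh with its standard error (SE), from edgeR's quasi-likelihood test fitted within each generation, with Benjamini-Hochberg adjustment over all genes tested and a threshold of 0.05.

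**Figure D1:**
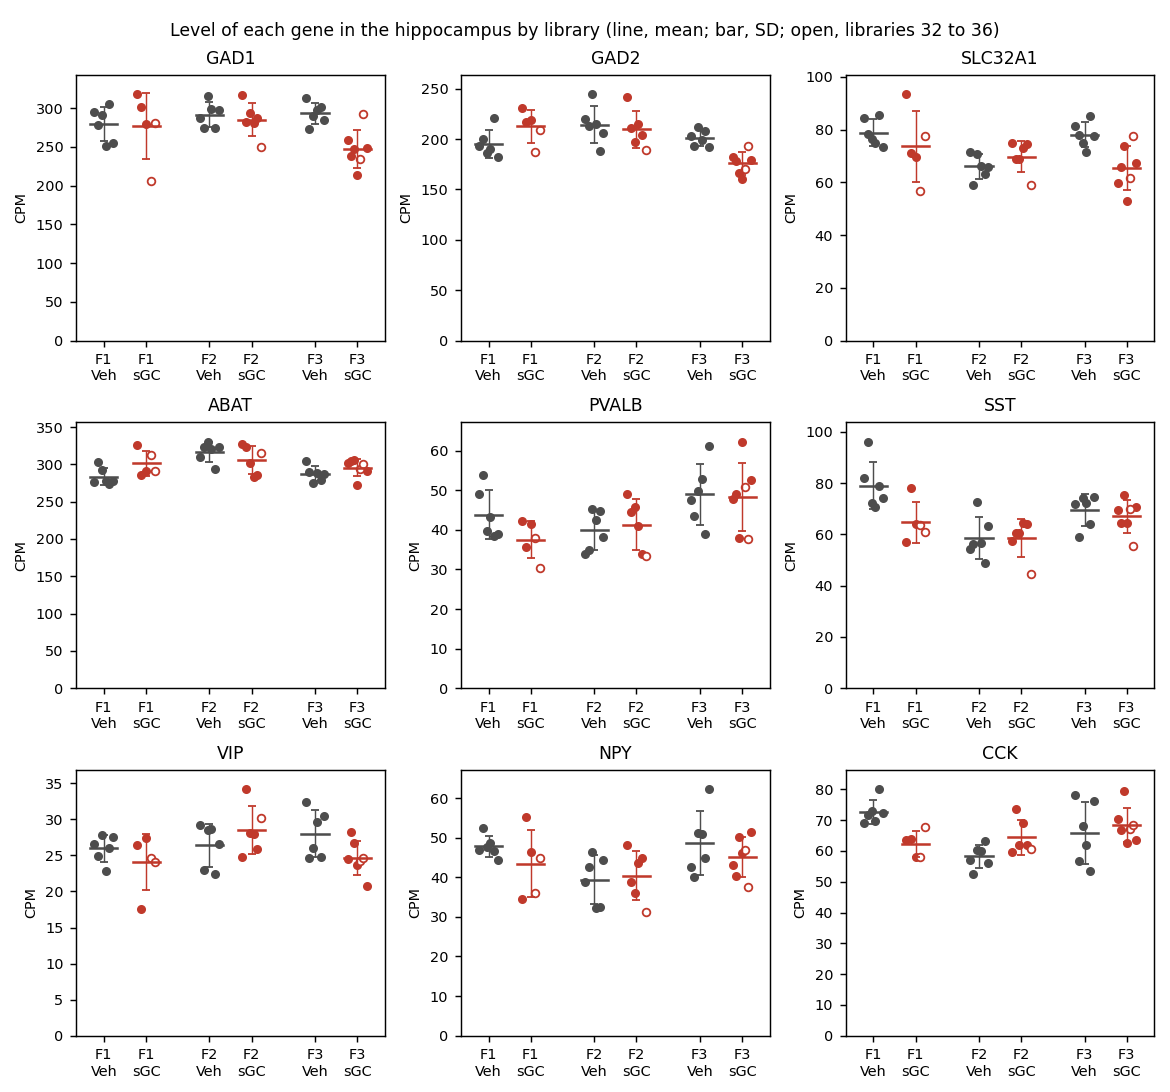
Level of each of the 9 genes (y axis, CPM from 0) in every library, by generation and group (x axis), with Veh in grey and sGC in red, the mean as a line, the SD as a bar, and open circles for the libraries numbered 32 to 36. In F3 the sGC animals lie low for GAD1 (mean 248 CPM against 294 in Veh), GAD2 (176 against 201) and SLC32A1 (65.6 against 78.1), and in F1 all sGC animals lie below all Veh animals for CCK.

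GAD1 encodes the decarboxylase that supplies most GABA of the cell body and terminals. In F3 Veh animals its lowest, median and highest levels were 274, 294 and 313 CPM, and in F3 sGC animals 214, 247 and 293 CPM. Of the 7 sGC animals 6 lay below every Veh animal, and the exception was replicate 6, which is library 34. The means were 294 ± 13.7 CPM (SD, n = 6) in Veh and 248 ± 24.5 CPM (SD, n = 7) in sGC animals, and the log2 change was -0.24 (SE 0.0559, edgeR adjusted p = 0.0183). In bulk tissue, fewer GABAergic cells and less GAD1 RNA per cell cannot be told apart. All 10 measured pan-neuronal genes were also lower in F3 sGC animals (median log2 change -0.17). All 9 astrocyte genes were higher (median 0.23). The part of these differences in the lower GAD1 was not tested. The background for the GAD1 result is 5.04% of 11359 genes called in F3, and 2.87% called lower. Leaving out each F3 animal in turn kept the adjusted p of GAD1 below the threshold, and without replicates 5 and 6 its log2 change was -0.28 (edgeR adjusted p = 0.0147).

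In F1 the 5 sGC animals had 318, 301, 279.9, 206 and 281 CPM of GAD1, and the Veh animals ran from 252 to 305 CPM with a median of 284. The low value of 206 CPM belongs to replicate 4, the library with the highest astrocyte sum, and the sGC animals spanned the whole Veh range. The log2 change was -0.019 (SE 0.0932, edgeR adjusted p = 0.931), and it became 0.074 without replicate 4 and 0.096 without replicates 4 and 5, with neither value past the threshold. In F2, Veh animals had 274, 293 and 316 CPM as lowest, median and highest and sGC animals 250.5, 285 and 317 CPM. The F2 groups overlapped almost fully, with a log2 change of -0.033 (95% interval -0.13 to 0.069). Over the 6 groups the mean GAD1 level fell in the order F3 Veh, F2 Veh, F2 sGC, F1 Veh, F1 sGC and F3 sGC. No step between neighbours in that order exceeded the larger SD of the pair, and the widest was the last, from 277 to 248 CPM.

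GAD2 encodes the decarboxylase found mostly at nerve terminals. In F3 its lowest, median and highest levels were 192, 201 and 212 CPM in Veh and 161, 178 and 193.5 CPM in sGC animals. As for GAD1, 6 of 7 sGC animals lay below every Veh animal and replicate 6 was the exception. The means of 201 ± 8.11 CPM (SD, n = 6) and 176 ± 11.0 CPM (SD, n = 7) differed by a log2 change of -0.20 (SE 0.0409, edgeR adjusted p = 0.0116). GAD2 also stayed past the threshold when any single F3 animal was left out, and without replicates 5 and 6 (-0.22, edgeR adjusted p = 0.0211).

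In F1 the sGC animals had 231, 217, 219, 187.3 and 209 CPM of GAD2, against 182, 191.2 and 221 CPM as lowest, median and highest in Veh. Here 4 of 5 sGC animals lay above the Veh mean, and replicate 4 was again the lowest. The log2 change of 0.12 (SE 0.0605, edgeR adjusted p = 0.308) did not pass. In F2 the Veh animals ran from 187.9 to 244 CPM and the sGC animals from 189 to 241 CPM, with a log2 change of -0.031 (95% interval -0.16 to 0.097). From high to low, the group means ran F2 Veh, F1 sGC, F2 sGC, F3 Veh, F1 Veh and F3 sGC. Only the last step, from 195 to 176 CPM, was larger than the larger SD of its pair.

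SLC32A1, the vesicular transporter that all GABAergic terminals use, had 71.6, 77.8 and 85.1 CPM as lowest, median and highest in F3 Veh and 53.1, 65.9 and 77.5 CPM in F3 sGC animals. All 7 sGC animals lay below the Veh mean, and 5 of them below every Veh animal. The means were 78.1 ± 4.71 CPM (SD, n = 6) and 65.6 ± 8.32 CPM (SD, n = 7). The log2 change of -0.25 (SE 0.0706, edgeR adjusted p = 0.0501) missed the threshold narrowly. It passed in 5 of 20 alternative fits, among them edgeR's likelihood ratio test (adjusted p = 0.0166) and DESeq2 (adjusted p = 0.0124). Without replicates 5 and 6 it was -0.29 with an adjusted p of 0.0375 from edgeR, and over the animals left out in turn the adjusted p ran from 0.0120 to 0.103.

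In F1, SLC32A1 was spread widely among sGC animals, with 93.4, 71.0, 69.4, 56.7 and 77.5 CPM, both above and below the Veh range of 73.4 to 85.5 CPM. The log2 change was -0.11 (95% interval -0.31 to 0.099, edgeR adjusted p = 0.567). In F2 Veh animals ran from 58.8 to 71.4 CPM and sGC animals from 58.8 to 74.7 CPM, a log2 change of 0.078 (95% interval -0.043 to 0.20). The group means fell from 78.8 CPM in F1 Veh through F3 Veh, F1 sGC, F2 sGC and F2 Veh to 65.6 CPM in F3 sGC, and no step between neighbours exceeded the larger SD.

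ABAT, the mitochondrial transaminase that removes GABA, was the steadiest of the 9 genes among animals of a group: only 14.2% of 11390 genes had a smaller SD of log2 CPM within groups. In F3 its lowest, median and highest levels were 275, 288 and 304 CPM in Veh and 272, 301 and 306 CPM in sGC animals. The groups overlapped, and 6 of 7 sGC animals lay above the Veh mean. The log2 change was 0.041 (95% interval -0.031 to 0.11, edgeR adjusted p = 0.531), so that in the animals with lower GAD1 and GAD2 the interval for ABAT reaches no further down than -0.031. In F1, sGC animals had 326, 286, 292, 312 and 292 CPM, all above the Veh mean of 284 CPM, and the log2 change was 0.080 (edgeR adjusted p = 0.342). In F2 it was -0.049 (95% interval -0.14 to 0.036). The order of means was F2 Veh (317 CPM), F2 sGC, F1 sGC, F3 sGC, F3 Veh and F1 Veh (284 CPM), with no step over the larger SD.

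**Figure D2:**
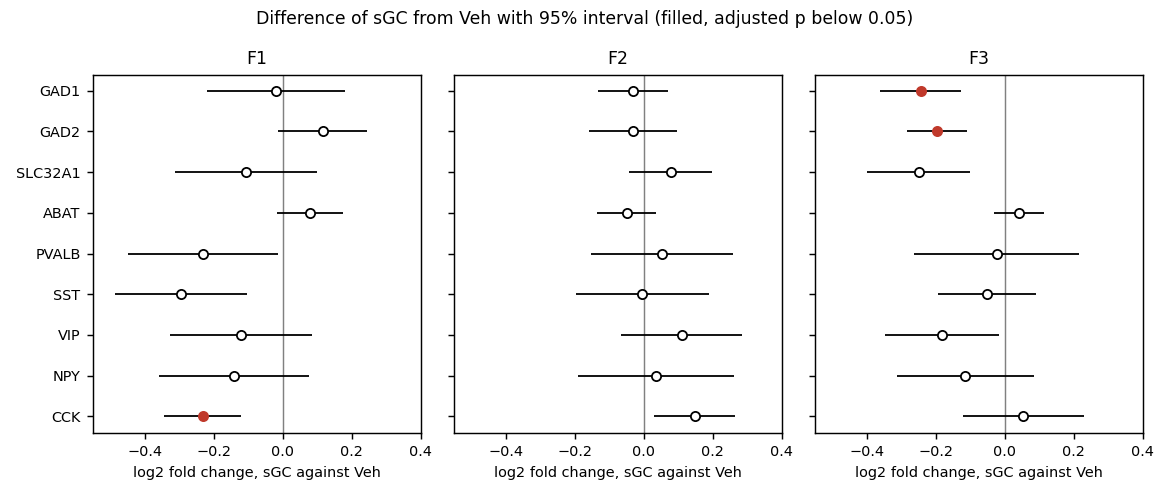
Log2 fold change of sGC against Veh (x axis) for the 9 genes (y axis) in F1, F2 and F3, each from the fit of its own generation, with 95% intervals as lines and filled points for an adjusted p below 0.05. CCK is filled in F1 at -0.23, no gene in F2, and GAD1 at -0.24 and GAD2 at -0.20 in F3.

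PVALB, the calcium buffer of fast-spiking basket and axo-axonic cells, varied most among animals of a group, and 84.4% of genes had a smaller SD within groups. In F1, sGC animals had 42.3, 35.8, 41.4, 37.9 and 30.5 CPM, against 38.4, 41.5 and 53.8 CPM as lowest, median and highest in Veh. All 5 lay below the Veh mean of 43.9 CPM, but 3 Veh animals lay inside the sGC range. The log2 change of -0.23 (SE 0.102, edgeR adjusted p = 0.226) did not pass. In F3 the ranges were 38.9 to 61.1 CPM in Veh and 37.7 to 62.3 CPM in sGC animals, and in F2 33.8 to 45.3 and 33.4 to 49.1 CPM. The log2 changes were -0.024 in F3 (95% interval -0.26 to 0.22) and 0.053 in F2 (95% interval -0.15 to 0.26). Mean levels were highest in the F3 groups (49.0 CPM in Veh and 48.3 in sGC animals), followed by F1 Veh, F2 sGC, F2 Veh and F1 sGC (37.6 CPM), each within 1 SD of its neighbour.

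SST marks dendrite-targeting interneurons such as the O-LM cells of the stratum oriens. In F1, sGC animals had 57.1, 78.2, 64.0, 63.7 and 60.8 CPM and Veh animals 70.9, 76.6 and 96.2 CPM as lowest, median and highest. Of the 5 sGC animals 4 lay below every Veh animal, and replicate 2 lay inside the Veh range. The means of 79.1 ± 9.34 CPM (SD, n = 6) and 64.8 ± 7.998 CPM (SD, n = 5) differed by a log2 change of -0.30 (SE 0.0889), the largest of the 9 genes in F1, with an adjusted p of 0.0926 from edgeR's quasi-likelihood test. It passed with edgeR's likelihood ratio test (adjusted p = 0.0365) and with DESeq2 (adjusted p = 0.0389), and without replicates 4 and 5 it was -0.26 (edgeR adjusted p = 0.222). In F2 the groups nearly coincided at 58.7 ± 8.25 (SD, n = 6) and 58.6 ± 7.30 CPM (SD, n = 6), and in F3 they were 69.4 ± 6.27 (SD, n = 6) and 67.1 ± 6.41 CPM (SD, n = 7). The log2 change in F3 was -0.051 (95% interval -0.19 to 0.091). F1 Veh had the highest mean and the 2 F2 groups the lowest, and only the first step of the order, from F1 Veh to F3 Veh, was larger than the larger SD.

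NPY is a peptide of neurogliaform, ivy and part of the SST cells. Its sGC animals of F1 had 34.5, 55.3, 46.5, 36.1 and 44.8 CPM, a wider spread than the Veh range of 44.4 to 52.3 CPM on both sides. The log2 change was -0.14 (95% interval -0.36 to 0.075, edgeR adjusted p = 0.456). In F2 the ranges were 32.1 to 46.3 CPM in Veh and 31.2 to 48.2 CPM in sGC animals, and in F3 40.0 to 62.2 and 37.5 to 51.4 CPM. The log2 changes were 0.036 in F2 and -0.11 in F3 (95% interval -0.31 to 0.084), neither past the threshold. Means ran from 48.6 CPM in F3 Veh through F1 Veh, F3 sGC, F1 sGC and F2 sGC to 39.4 CPM in F2 Veh, without a step over the larger SD.

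VIP, found in interneurons that contact other interneurons, had the fewest reads of the 9 genes. In F3 its lowest, median and highest levels were 24.7, 27.8 and 32.5 CPM in Veh and 20.7, 24.5 and 28.2 CPM in sGC animals. Here 6 of 7 sGC animals lay below the Veh mean of 28.01 CPM, and 5 lay below every Veh animal. The log2 change of -0.18 (SE 0.0779) had an unadjusted p of 0.0312 in edgeR and an adjusted p of 0.187 from edgeR. In F1 the sGC animals had 26.5, 17.5, 27.4, 24.7 and 24.1 CPM against a Veh range of 22.9 to 27.9 CPM, a log2 change of -0.12 (edgeR adjusted p = 0.505). In F2 it was 0.11 (edgeR adjusted p = 0.802). The order of means was F2 sGC, F3 Veh, F2 Veh, F1 Veh, F3 sGC and F1 sGC, from 28.5 to 24.05 CPM, with no step over the larger SD.

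CCK marks basket cells that carry the cannabinoid receptor CB1 and is also made by some principal cells. In F1 the sGC animals had 63.4, 64.0, 58.0, 57.9 and 67.8 CPM, and the Veh animals 69.1, 72.1 and 80.0 CPM as lowest, median and highest. The groups did not overlap, which held for 4.32% of genes in F1 in either direction and for 1.55% in the lower direction. The means of 72.7 ± 3.91 CPM (SD, n = 6) and 62.2 ± 4.23 CPM (SD, n = 5) differed by a log2 change of -0.23 (SE 0.0522, edgeR adjusted p = 0.0399). In F1, 2.08% of 11377 genes were called, and 0.457% were called lower. The call on CCK was narrow: it was lost without replicates 4 and 5 (-0.24, edgeR adjusted p = 0.0563), without any 1 of the Veh animals, and without sGC replicate 2, 3 or 5, with edgeR adjusted p values up to 0.0891. Its direction did not change in any of these fits.

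In F2 the difference in CCK had the other sign. Veh animals had 52.7, 58.5 and 63.2 CPM as lowest, median and highest, and sGC animals 59.6, 61.8 and 73.6 CPM. All 6 sGC animals lay above the Veh mean of 58.2 CPM, and 2 lay above every Veh animal. The log2 change was 0.15 (95% interval 0.031 to 0.26), with an unadjusted p of 0.0165 and an adjusted p of 0.711 from edgeR. In F3 the ranges of 53.6 to 78.3 CPM in Veh and 62.7 to 79.3 CPM in sGC animals gave a log2 change of 0.053 (95% interval -0.12 to 0.23). The order of means was F1 Veh (72.7 CPM), F3 sGC, F3 Veh, F2 sGC, F1 sGC and F2 Veh (58.2 CPM), and no step exceeded the larger SD.

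In F2, then, 0 of 9 genes passed, where 0% of 11414 genes were called by the quasi-likelihood test of edgeR, 758 genes had an unadjusted p below 0.05, and DESeq2 and the likelihood ratio test called 12 and 6 genes. The median log2 change of the 9 genes was 0.036, with 5 higher and 4 lower. In F1 and F3 the medians were -0.12 and -0.11, with 7 of 9 genes lower in each, beside medians over all genes of -0.0055 and 0.0048. The genes that were higher in sGC animals were GAD2 and ABAT in F1 and ABAT and CCK in F3, none of them past the threshold.

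Whether the effect of sGC differed between generations was tested as an interaction over all 36 libraries. For GAD2, the F3 effect minus the F1 effect was -0.32 on the log2 scale (SE 0.0809, unadjusted p = 0.000346, edgeR adjusted p = 0.0910), which ranked 41 among 11390 genes. For GAD1 the same difference was -0.23 (edgeR adjusted p = 0.322). In this comparison 0% of genes were called by edgeR's quasi-likelihood test, with 1492 at an unadjusted p below 0.05, and the likelihood ratio test and DESeq2 called 58 and 67. The comparison depended on F1 sGC replicate 4. Without that animal 454 genes were called, and the differences were -0.32 for GAD1 (edgeR adjusted p = 0.0263) and -0.36 for GAD2 (edgeR adjusted p = 0.00868). Without libraries 32 to 36 they were -0.38 and -0.40, both with an adjusted p of 0.00823 from edgeR.

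For CCK, the F2 effect minus the F1 effect was 0.37 on the log2 scale (SE 0.104, unadjusted p = 0.000971, edgeR adjusted p = 0.0768), in a comparison where 0.290% of genes were called. It passed with the likelihood ratio test of edgeR (adjusted p = 0.0369) and with DESeq2 (adjusted p = 0.0277). Between F3 and F2 the widest difference of the 9 genes was that of SLC32A1, at -0.33 (SE 0.113, edgeR adjusted p = 0.494), and 0% of genes were called, with 1035 at an unadjusted p below 0.05 and none by the likelihood ratio test or DESeq2. The effect averaged over the generations passed for none of the 9 genes, where 8.53% of genes were called. Its values for SST, GAD1 and SLC32A1 were -0.11, -0.096 and -0.090, with adjusted p values of 0.164, 0.140 and 0.233 from edgeR.

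Ratios of raw counts within a library do not depend on library scaling, and were compared by an exact two-sided permutation test over animals, adjusted over 9 tests. In F3 the ratio of GAD1 to GAD2 was 1.46 ± 0.0601 (SD, n = 6) in Veh and 1.41 ± 0.0714 (SD, n = 7) in sGC animals, so the difference of both genes left their ratio within the spread of animals (difference in mean log2 ratio -0.050, exact permutation p = 0.191, adjusted p = 0.424). Against SLC17A7, the vesicular glutamate transporter of excitatory cells, the log2 ratio of GAD1 was lower by a mean of 0.16 and that of GAD2 by 0.11 in F3 sGC animals, with exact permutation p values of 0.162 and 0.235. SLC17A7 itself had a log2 change of -0.087 in F3 (edgeR adjusted p = 0.337). In F1 the ratio of GAD1 to GAD2 was 1.43 ± 0.0920 (SD, n = 6) in Veh and 1.30 ± 0.119 (SD, n = 5) in sGC animals, and the ratio of GAD2 to SLC17A7 had a mean log2 difference of 0.16. Their exact permutation p values were 0.0606 and 0.0779, and both adjusted p values were 0.351. None of the 9 ratio tests passed after adjustment.

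Among animals of the same group, GAD1, GAD2 and SLC32A1 varied together. Levels were centred on their group means and correlated over 36 libraries, with permutation within groups and adjustment over 36 pairs. GAD1 and SLC32A1 had a Pearson r of 0.80 and a Spearman rho of 0.62 (adjusted permutation p = 0.00024 and 0.00372), and r was 0.71 without the 2 libraries farthest from the median of GAD1. Within F1, F2 and F3 alone r was 0.87, 0.80 and 0.70. GAD1 and GAD2 had an r of 0.76 and a rho of 0.65 (adjusted permutation p = 0.00018 and 0.00126), an r of 0.71 without the 2 farthest libraries, and 0.81, 0.77 and 0.82 within the generations. GAD2 and SLC32A1 followed with an r of 0.63 and a rho of 0.54 (adjusted permutation p = 0.0018 and 0.0194), 0.63 without the 2 farthest libraries and 0.77, 0.66 and 0.49 within the generations. This last pair fell to an r of 0.44 without libraries 32 to 36 (adjusted permutation p = 0.0696). Among 11389 genes compared, SLC32A1 and GAD2 ranked 2 and 11 in likeness to GAD1. For GAD2, GAD1 and SLC32A1 ranked 1 and 19, and for SLC32A1, GAD1 and GAD2 ranked 4 and 118.

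SST and NPY formed the other pair. Their r was 0.73 and their rho 0.72 (adjusted permutation p = 0.00018 and 0.00036), with an r of 0.67 without the 2 libraries farthest from the median of SST and 0.67, 0.74 and 0.78 within F1, F2 and F3. Each was the gene most like the other among 11389 genes compared. These 4 pairs of 36 were past the threshold by both measures, and the other 32 pairs had an r between -0.28 and 0.42. PVALB went with neither group: over the 9 genes its highest r was 0.34, with SST. In F3 alone its r with SLC32A1 was -0.80, where F1 and F2 gave 0.11 and 0.33.

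**Figure D3:**
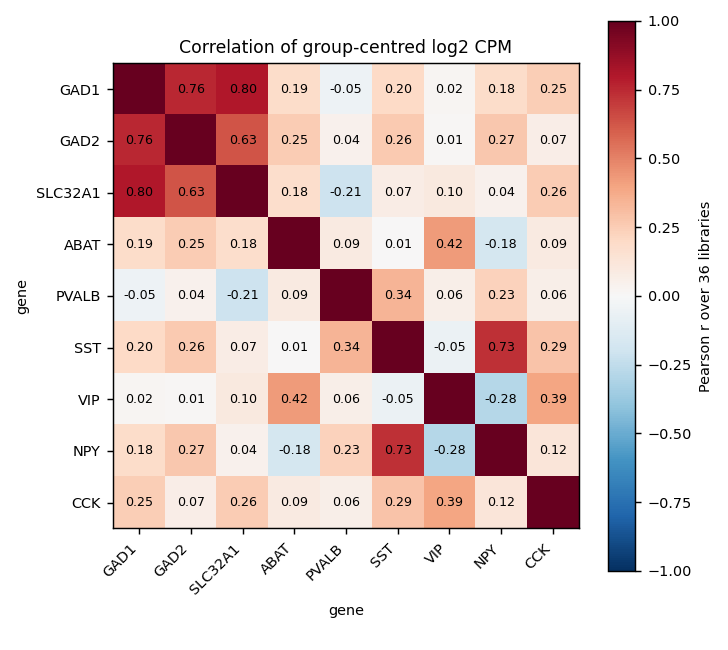
Pearson r between the 9 genes over 36 libraries, from log2 CPM centred on the mean of each group (colour scale from -1 to 1; the diagonal is each gene with itself). GAD1, GAD2 and SLC32A1 form a block with r from 0.63 to 0.80, and SST and NPY a pair with r of 0.73.

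**Figure D4:**
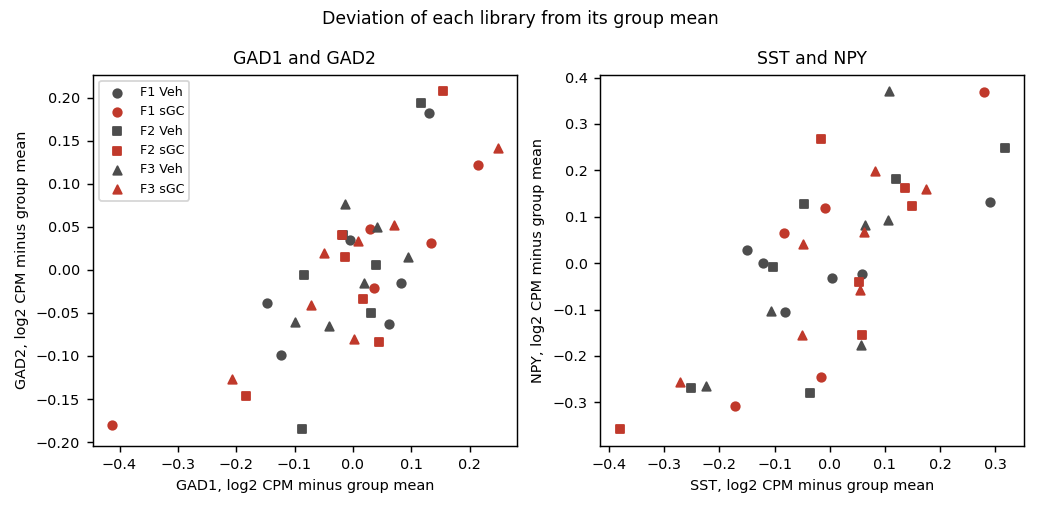
Deviation of each library from its group mean in log2 CPM, for GAD1 (x axis) and GAD2 (y axis) on the left and for SST (x axis) and NPY (y axis) on the right, with grey for Veh, red for sGC and marker shapes for the generations. Both pairs rise together, with r of 0.76 and 0.73 over 36 libraries.

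Over all genes tested in the 3 generations, the centred levels most like GAD1 were those of MAPRE2 (r = 0.89), SLC32A1 (0.80) and MARCH6 (0.78), over 36 libraries and as a description without a test. For GAD2 they were GAD1 (0.76), the chloride cotransporter SLC12A2 (0.70) and MAPRE2 (0.69), and for SLC32A1 LGI3 (0.82), CCAR2 (0.82) and CHERP (0.80). ABAT was most like WRB (0.71), CRABP2 (0.70) and VAT1L (0.66), and PVALB like CRLS1 (0.81), SEMA7A (0.75) and BCL11B (0.72). After NPY, SST was most like NUCB2 (0.64) and PIH1D1 (0.62). NPY, after SST, was most like its own receptor gene NPY5R (0.72) and BDNF (0.68). VIP was most like NOV (0.70), CYB561 (0.69) and FXYD6 (0.69), and CCK like NDUFV1 (0.79), DDX28 (0.71) and ATP6V1F (0.70). Each point behind these values is 1 library, so that depth and RNA quality shared by its genes enter them.

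Other genes of GABA signalling and of interneurons were followed as lists. Of 7 measured genes of the GABA-B receptor and the inhibitory postsynapse and 8 of the peptide receptors, 0 were called in any generation.

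Of 15 transcription factors of interneuron specification 10 were measured. LHX6, which is kept by SST and PVALB cells, had log2 changes of -0.020, -0.11 and -0.029 in F1, F2 and F3, none past the threshold (smallest adjusted p = 0.749, from edgeR). SOX6 was the 1 factor called, in F3, with 29.98 ± 1.82 CPM (SD, n = 6) in Veh, 36.7 ± 3.08 CPM (SD, n = 7) in sGC animals and a log2 change of 0.29 (edgeR adjusted p = 0.00902), and it is also expressed in glial cells. Of 17 other interneuron markers 14 were measured. In F1 NOS1, of nitric oxide cells, rose by 0.31 and TAC1, the gene of substance P, fell by 0.46 on the log2 scale (adjusted p = 0.0330 and 0.0291 from edgeR). Without libraries 32 to 36 the log2 changes were 0.30 and -0.39, and neither call was kept (adjusted p = 0.0648 and 0.0925 from edgeR). In F3 none of the 14 was called, and 13 of 14 were lower, with a median of -0.13.

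Pan-neuronal and astrocyte markers also differed between the F3 groups, in opposite directions. Of 11 pan-neuronal genes 10 were measured, and all 10 were lower in F3 sGC animals, with a median of -0.17. Of these, 7 were called (ELAVL4, ENO2, NEFL, NEFM, SNAP25, SYP and SYT1), beside 2.87% of all genes called lower in F3. The lists were chosen with earlier results of these data known, so such counts are a description and no test. The paper had already reported SYP, SNAP25 and SYT1 as differentially expressed in F3. The sum of the 10 ranged from 7814 to 8335 CPM in Veh and from 6679 to 7502 CPM in sGC animals. All 9 astrocyte genes were measured, and all 9 were higher, with a median of 0.23. Of these, 4 were called (GLUL, S100B, SLC1A2 and SLC4A4), beside 2.17% of all genes called higher in F3. Each of the 4 lost its call in the fit over all 3 generations (edgeR adjusted p from 0.0767 to 0.218). With the replicate number as a block they lost it as well (edgeR adjusted p from 0.0585 to 0.0918). In each of these 2 fits 1 gene of the list was called. GLUL also lost its call in 10 of 13 fits that left out 1 animal. The astrocyte sums were 9576 to 10542 CPM in Veh and 10759 to 12409 CPM in sGC animals. Neither sum overlapped between the F3 groups, and no gene of either list was at 0 in a library. Of single genes in F3, 1.78% had groups that did not overlap with sGC lower, and 0.837% with sGC higher. Of 6 measured glutamatergic genes 0 were called, with sums of 9643 to 10443 and 8576 to 12174 CPM. The part of these cell type differences in the lower GAD1 and GAD2 was not tested. In F1, where GAD1 and GAD2 did not pass, the pan-neuronal list had 0 of 10 genes called and a median of -0.068, and the astrocyte list had 1 of 9 called (SLC4A4, log2 change 0.48) and a median of 0.24. SLC4A4 lost that call in 9 of 11 fits that left out 1 animal. Without libraries 32 to 36 it was 0.31 (edgeR adjusted p = 0.0956). DESeq2 and the likelihood ratio test each called 2 astrocyte genes in F1, and the fit over all generations called 6. In F2 both lists had 0 called. In the effect averaged over the generations, 7 of 9 astrocyte genes were called higher and 4 of 10 pan-neuronal genes lower. Beside them stand 5.07% of all genes called higher and 3.46% called lower. All genes called for this averaged effect were 971, and 54 without libraries 32 to 36.

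**Figure D5:**
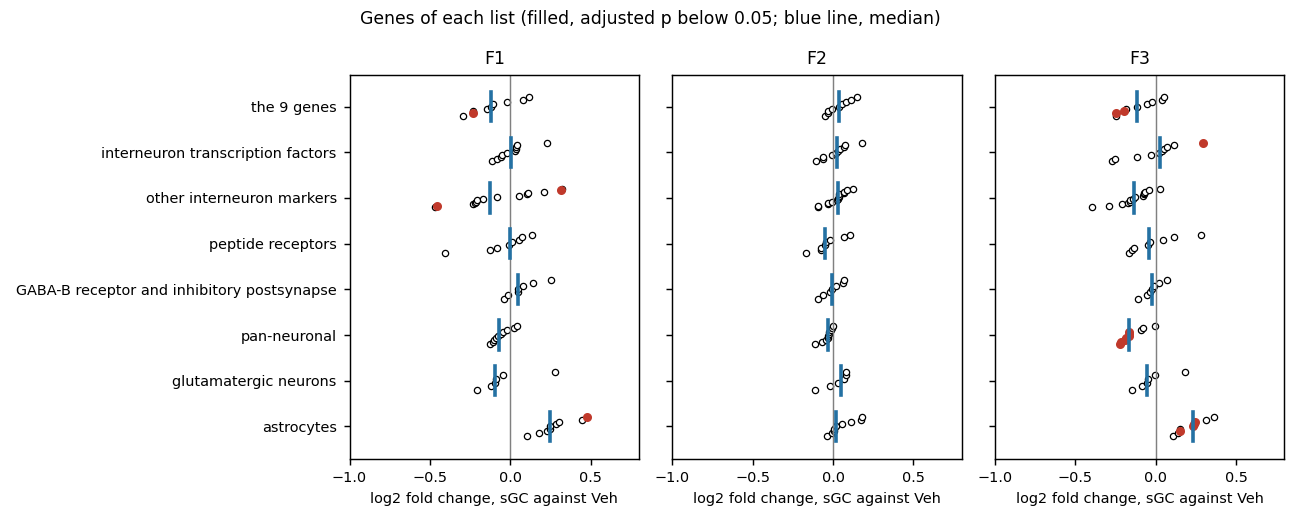
Log2 fold changes of sGC against Veh (x axis) for the 9 genes and 7 other lists (y axis) in F1, F2 and F3. Each point is 1 gene, filled for an adjusted p below 0.05, and the blue line is the median of the list. In F3 the pan-neuronal genes lie low (median -0.17) and the astrocyte genes high (median 0.23), and in F2 no point is filled.

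Veh animals of F2 differed from those of F1 and F3 in many of all genes tested, and the 9 genes are given beside that share. These comparisons used 1 fit over 36 libraries. Against F1 Veh, F2 Veh animals had lower SST (-0.43 on the log2 scale), CCK (-0.32), NPY (-0.28) and SLC32A1 (-0.25) and higher ABAT (0.16), with adjusted p values from edgeR of 0.000149, 0.000324, 0.0397, 0.0101 and 0.00103. These 5 of 9 genes stand beside 44.9% of all genes called in the same comparison, and NPY lost its call in 7 of 36 fits that left out 1 animal. Against F2 Veh, F3 Veh animals had higher NPY (0.30), PVALB (0.30), SLC32A1 (0.24), SST (0.24) and CCK (0.18) and lower ABAT (-0.14), so that 6 of 9 genes were called beside 38.0% of all genes. With 1 animal left out at a time this count ran from 2 to 6. It was 2 without F2 Veh replicate 2, F3 Veh replicate 3 or F3 Veh replicate 6, and 3 without F2 Veh replicate 1 or 4 or F3 Veh replicate 1 or 4. CCK lost its call in 22 of these 36 fits, SST in 8, PVALB in 7, NPY in 5, SLC32A1 in 1 and ABAT in 0, with no change of direction. Between F3 Veh and F1 Veh 0 of 9 genes were called, beside 0.0527% of all genes, and the widest difference was that of SST at -0.19. GAD1 and GAD2 were called in none of these comparisons, and GAD2 came closest in F2 against F1 (0.13, edgeR adjusted p = 0.0536). SLC17A7 differed by -0.82 between F2 Veh and F1 Veh, with 2160 ± 145 CPM (SD, n = 6) in F1 Veh, 1222 ± 47.5 CPM (SD, n = 6) in F2 Veh and 2117 ± 73.0 CPM (SD, n = 6) in F3 Veh. Among Veh animals the library numbers run generation by generation. In these comparisons the generation and the order in which libraries were numbered therefore cannot be told apart.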

How the data were processed

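RNA of the right hippocampus was sequenced by the authors (1 library per animal), reads were trimmed, aligned and assigned to genes of the guinea pig genome, and raw read counts per gene and library were deposited without normalization. Per the labels of all samples, RNA and methylation libraries together, the processing tools include Trimmomatic 0.32, TopHat2 and edgeR. The paper names Trimmomatic for the bisulfite reads. The library kit does not mark strand, so reads of overlapping antisense genes cannot be separated. The tables also hold the authors' own comparison (fold change, average log2 CPM, likelihood ratio, p-values and a dispersion), which was not used, and neither were the methylation tables, which hold comparisons only.

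Counts were filtered by filterByExpr, scaled by TMM and compared by edgeR 4.0.16's quasi-likelihood test (R 4.3.3, limma 3.58.1) within each generation, with Benjamini-Hochberg adjustment. Interactions and comparisons of Veh animals used 1 fit over 36 libraries. Log2 CPM used a prior count of 2. Ratios and correlations were tested with scipy 1.17.1 (numpy 2.4.6, pandas 2.3.3), the latter with 1e+05 resamples, and figures drawn with matplotlib 3.10.9. Scripts were checked on simulated counts. The 9 genes and the lists were chosen with earlier results of these data known. Named are the 9 genes, listed genes with an adjusted p below 0.05 within a generation, SLC17A7 and LHX6, and the 3 genes most like each of the 9. Some listed genes are not reported here. Alternatives were RLE size factors, DESeq2 1.42.0, the likelihood ratio test, no filter, a fit over all generations, a replicate block, each animal left out and libraries 32 to 36 left out. Depth (13507449 to 19767033 reads) sets the counting error only.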

Additional observations from a re-analysis of the deposited data

Results flagged for a closer look

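In 54 sets of levels (9 genes in 6 groups), 3 held an animal far from the rest of its group, about as many as chance gives at 1 in 20. CCK in F1 Veh replicate 5 was 80.0 CPM, and the other 5 Veh animals lay between 69.1 and 73.0 CPM. SLC32A1 in F2 sGC replicate 6 was 58.8 CPM, against 68.8 to 74.7 CPM in the others. SST in the same animal was 44.7 CPM, against 57.5 to 64.5 CPM. That F2 animal is 1 of the libraries numbered 32 to 36. Without them SLC32A1 in F2 had a log2 fold change of 0.12 and SST of 0.060, neither past the threshold.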

How the results depend on the processing

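GAD1 and GAD2 in F3 kept their direction and their call under RLE size factors, DESeq2, the likelihood ratio test, no filter on low counts, a fit over all 3 generations, without libraries 32 to 36 and with each F3 animal left out in turn. With the replicate block the log2 changes of -0.25 and -0.20 kept their direction and size, and the calls were lost (edgeR adjusted p = 0.0623 and 0.0690). CCK in F1 lost its call in the fit over all 3 generations (edgeR adjusted p = 0.0563), with the block (0.0691), and without libraries 32 to 36 (0.0563). Causes were not tested. Depth limits VIP most, which has the fewest reads.

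It is not stated whether replicate numbers pair the animals, and correlations over 5 or 6 pairs cannot decide it. Same-numbered animals had correlations from -0.072 to 0.29 in F1, -0.29 to 0.19 in F2 and -0.29 to 0.014 in F3. Of the sGC animals, 2 of 5, 2 of 6 and 0 of 6 fitted their own number best. With the number as a replicate block, all genes called fell from 237 to 68 in F1, from 573 to 1.7e+02 in F3, from 33 to 4 for the F2 minus F1 effect and from 6 to 2 for Veh F3 against F1. Of the 9 genes 0 were then called in F1 and 0 in F3, and the F2 minus F1 effect of GAD1 turned to 0.012.

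DESeq2, the likelihood ratio test and the fit over all generations called 658, 598 and 853 genes in F1 (2, 2 and 0 of the 9), and DESeq2 and the joint fit 944 and 334 in F3. In F2, DESeq2 called 12 and the likelihood ratio test 6. For the F2 minus F1 effect DESeq2, the likelihood ratio test and no filter called 270, 168 and 66 genes, and for F3 minus F1 DESeq2 and the likelihood ratio test called 67 and 58. DESeq2 and the likelihood ratio test each called 1 of the 9 genes in both comparisons. The likelihood ratio test called 10 genes for Veh F3 against F1.

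Without libraries 32 to 36, all genes called were 97 in F1, 317 in F3, 68 for F2 minus F1, 431 for F3 minus F1 and 54 for the mean effect, with 0 of the 9 in F1 and 2 of the 9 for F3 minus F1. Values that did not pass changed sign: GAD1 in F1 (0.096) and F2 (0.00084), SLC17A7 in F1 (0.010), SST in F2 (0.060), PVALB in F3 (0.025), NPY in F3 minus F1 (-0.0023), the log2 ratio of GAD1 to GAD2 in F2 (0.0034), and the correlations of GAD2 with CCK (-0.0037), SLC32A1 with NPY (-0.15) and SST with VIP (0.0030).

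With 1 animal left out at a time, all genes called ranged from 56 (without F1 sGC replicate 5) to 342 in F1, 0 to 1 in F2, 288 (without F3 sGC replicate 5) to 639 in F3, 0 to 219 for F2 minus F1, 0 to 454 for F3 minus F1, 539 (without F1 sGC replicate 4) to 1192 for the mean effect and 2 to 9 for Veh F3 against F1. The 9 genes called ranged from 0 to 1 in F1, 0 to 1 for F2 minus F1, 0 to 2 for F3 minus F1 and 2 to 6 for Veh F3 against F2. Values that did not pass crossed 0 in F1 for GAD1 (-0.073 to 0.074), LHX6 (-0.059 to 0.029) and SLC17A7 (-0.089 to 0.00044), in F2 for GAD1 (-0.065 to 0.00084), GAD2 (-0.075 to 0.011), NPY (-0.022 to 0.098), PVALB (-0.0029 to 0.11) and SST (-0.051 to 0.067), and in F3 for CCK (-0.00098 to 0.11) and PVALB (-0.094 to 0.051). The same held for GAD1 in F2 minus F1 (-0.11 to 0.032), NPY in F3 minus F1 (-0.052 to 0.12), SST in F3 minus F2 (-0.12 to 0.00015), CCK in the mean effect (-0.025 to 0.011), and between Veh animals for VIP in F2 against F1 (-0.0075 to 0.067), NPY (-0.057 to 0.074) and SLC32A1 (-0.041 to 0.011) in F3 against F1 and GAD1 in F3 against F2 (-0.010 to 0.033). The log2 ratios of GAD1 to GAD2 in F2 (-0.030 to 0.015) and GAD1 to SLC17A7 in F1 (-0.050 to 0.075) crossed 0 as well.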
